A study of Arabidopsis thaliana with 35 samples.

Results

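The 8 genes described here encode enzymes of galactinol and raffinose metabolism in Arabidopsis thaliana. They were picked as a pathway by locus identifier, with earlier results of these data known, and are 8 of the 27417 genes in the deposited count tables. They comprise the galactinol synthase genes GOLS1 (AT2G47180), GOLS2 (AT1G56600), GOLS3 (AT1G09350) and GOLS4 (AT1G60470), the raffinose synthase gene RS5 (AT5G40390), STS (AT4G01970), which is annotated as a stachyose synthase gene, and the seed imbibition protein genes SIP1 (AT1G55740) and SIP2 (AT3G57520). The series asked how ethanol supplied before drought changes the transcriptome of shoots under water deficit.

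Galactinol synthase joins UDP-galactose and myo-inositol to form galactinol, which is the donor of galactose in the next step. Raffinose synthase moves that galactose onto sucrose and so makes raffinose, and alkaline alpha-galactosidases such as SIP2 take it off again. Galactinol and raffinose are known to accumulate in leaves under drought, salt, heat and cold, where they are regarded as compatible solutes and antioxidants.

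Shoots of wild-type Col-0 plants were analysed in 7 groups of 5 libraries each. Ethanol-treated plants were given ethanol at 10 mM over 3 days, and shoots were taken 0, 10 and 13 days after drought (DAD), water-treated plants had received water over the same 3 days and were sampled at the same times, and 1 more group was sampled before either pretreatment. All plants had grown on MS medium (9 days in the sample labels) and then in ceramic soil (5 days), and none carried a transgene or a mutation in the labels. Water-treated plants at 10 and 13 DAD were themselves under drought, so a difference between pretreatments at these times is a difference between 2 sets of droughted plants. Replicates are separate libraries, and the labels do not say whether they came from separate plants, so the p-values measure the spread between libraries. Total counts ranged from 3589540 to 13440389 per library (median 7039056), and 0 pairs of libraries were identical. The median Pearson r of a library with its own group, on depth-scaled log2 counts, was 0.951 to 0.977 over all libraries. At 13 DAD it was 0.952 to 0.962 in ethanol-treated plants, against 0.971 to 0.977 in water-treated plants, and replicates 1 and 3 of the ethanol-treated plants differed from the other 3 in several of the genes below, so values that rest on 1 library are also given without it. The leaf markers RBCS1A, CAB1 and RCA, fixed to check the tissue, were detected in every group, and the 5 root markers summed to at most 22.0 normalized counts in any library.

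Upstream sequences are shown for the 4 galactinol synthase genes and SIP2, since most of the differences described below concern these 5 genes. The 250 bases before the annotated gene start were read from the RefSeq assembly TAIR10.1 and are written 5′ to 3′ on the strand of the gene. Capitals mark matches on either strand to 3 short cores, namely the abscisic acid response element (ABRE) core ACGTG, the dehydration response element (DRE) core CCGAC and the heat shock element core GAANNTTC. The word CACGTG holds the ABRE core once on each strand, so it counts as 2 overlapping matches.
GOLS1 (chr2:19370479-19370728, minus strand): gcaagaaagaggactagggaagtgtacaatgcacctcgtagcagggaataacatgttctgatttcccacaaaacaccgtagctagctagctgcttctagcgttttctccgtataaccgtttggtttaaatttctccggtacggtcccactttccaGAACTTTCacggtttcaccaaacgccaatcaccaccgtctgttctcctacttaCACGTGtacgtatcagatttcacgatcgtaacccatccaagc
GOLS2 (chr1:21207287-21207536, plus strand): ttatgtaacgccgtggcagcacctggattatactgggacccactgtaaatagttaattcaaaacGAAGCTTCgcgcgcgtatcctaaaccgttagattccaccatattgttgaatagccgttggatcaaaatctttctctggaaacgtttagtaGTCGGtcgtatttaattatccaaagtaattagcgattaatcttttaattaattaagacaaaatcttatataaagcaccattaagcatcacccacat
GOLS3 (chr1:3019389-3019638, plus strand): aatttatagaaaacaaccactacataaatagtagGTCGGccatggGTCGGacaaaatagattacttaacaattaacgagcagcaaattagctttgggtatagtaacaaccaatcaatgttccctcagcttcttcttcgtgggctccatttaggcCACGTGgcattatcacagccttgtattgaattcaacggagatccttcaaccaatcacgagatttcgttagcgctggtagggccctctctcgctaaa
GOLS4 (chr1:22280594-22280843, minus strand): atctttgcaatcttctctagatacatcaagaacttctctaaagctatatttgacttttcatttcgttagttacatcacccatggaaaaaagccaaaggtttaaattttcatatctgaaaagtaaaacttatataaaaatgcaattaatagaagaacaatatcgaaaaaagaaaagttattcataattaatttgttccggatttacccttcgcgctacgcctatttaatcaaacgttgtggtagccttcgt
SIP2 (chr3:21293172-21293421, minus strand): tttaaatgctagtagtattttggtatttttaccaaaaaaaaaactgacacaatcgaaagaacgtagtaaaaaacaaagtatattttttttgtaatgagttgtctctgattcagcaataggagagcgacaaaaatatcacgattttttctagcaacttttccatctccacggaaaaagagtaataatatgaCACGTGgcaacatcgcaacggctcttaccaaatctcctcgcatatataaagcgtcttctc

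An ABRE core lay in the window of 5 of the 8 genes (GOLS1, GOLS3, STS, SIP1 and SIP2), against 22.9% of the 27443 windows of the same length before annotated protein-coding genes. Each of these 5 genes had 2 matches, against 8.84% of all windows. A DRE core was found before 3 of the 8 genes (GOLS2, GOLS3 and RS5), against 12.0% of all windows. GOLS3 alone among the 8 had 2 DRE cores, 216 and 205 bases before its start, against 1.46% of all windows. The heat shock element core lay 95 bases before GOLS1 and 186 bases before GOLS2, against 9.55% of all windows. The window of GOLS4 held none of the 3 cores. These matches describe letters in a short window and were not tested for binding.

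**Figure D1:**
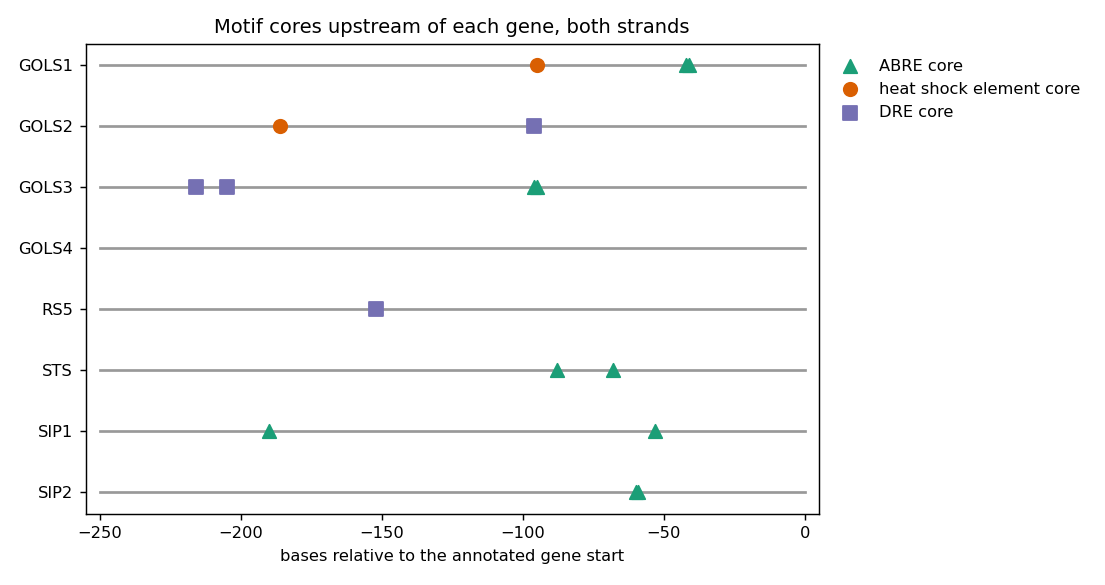
Positions of the 3 motif cores (symbols) in the 250 bases before the annotated start of each of the 8 genes, with the distance from the start in bases on the horizontal axis. GOLS1, GOLS3 and SIP2 each show a pair of ABRE matches at adjacent positions, and GOLS4 shows none.

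The genes lie on chromosomes 1 to 5, with positions given on TAIR10.1. GOLS1 spans chr2:19368798-19370478, GOLS2 chr1:21207537-21209635, GOLS3 chr1:3019639-3021443 and GOLS4 chr1:22278975-22280593, and each of these 4 genes has 4 exons. RS5 spans chr5:16161449-16165453 with 5 exons and STS chr4:853922-857401 with 4 exons. SIP1 (chr1:20835256-20838778, 12 exons) and SIP2 (chr3:21288742-21293171, 14 exons) are the most divided. The closest pair among the members were the transcripts of GOLS2 and GOLS3, which were 82.1% identical over 976 bp, and 0 of the 8 genes had a copy with at least 95% identity over 100 bp. GOLS1 and GOLS4 overlapped a neighbour by 43 and 33 bp, in both cases on the opposite strand, and the authors' counting used the strand.

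Most of these genes changed along the drought, at different times. GOLS2 and GOLS3 had risen by 10 DAD in both pretreatments, whereas RS5, SIP2 and GOLS4 rose between 10 and 13 DAD. GOLS3 fell between 10 and 13 DAD in both pretreatments. Levels are given as the authors' normalized counts, and fold changes come from edgeR's quasi-likelihood test on the raw counts with Benjamini-Hochberg adjustment over all genes tested. A gene was taken as differentially expressed at a false discovery rate below 0.1 if its log2 fold change was also 1 or more in size. In such bulk tissue, fewer cells of a type and less RNA per cell cannot be told apart.

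Of the members tested, 3 of 5 rose between 0 and 10 DAD in ethanol-treated plants and 2 of 5 in water-treated plants, and 0 fell. Among all genes tested, 17.6% changed either way in ethanol-treated plants (5.74% higher) and 16.8% in water-treated plants (6.26% higher). Between 10 and 13 DAD, 5 of 7 members rose and 1 fell in ethanol-treated plants (30.8% of all genes either way, 12.9% higher and 17.9% lower), and 4 of 6 rose and 1 fell in water-treated plants (43.6% of all genes, 17.9% higher and 25.6% lower). At 13 against 0 DAD, 6 of 7 members were higher and 0 lower in ethanol-treated plants (44.3% of all genes either way, 19.5% higher and 24.8% lower). In water-treated plants 5 of 6 were higher and 1 lower (52.5% either way, 22.6% higher and 30.0% lower). The median log2 fold change of the tested members at 13 against 0 DAD was 2.52 in ethanol-treated plants (0.03 over all genes tested) and 3.78 in water-treated plants (-0.05 over all genes tested). The first is over 7 members and is the value of SIP1, and the second is over 6 members without SIP1. These 2 medians therefore do not compare the pretreatments. SIP1, STS and, at the earlier times, GOLS4 had too few counts for some or all of these tests. Along the drought, GOLS4 and SIP1 passed the expression filter only in tests that held libraries of 13 DAD, where their counts were high. They could therefore hardly be called lower, and their direction in these counts carries little weight. SIP1 was tested in ethanol-treated plants alone, so the counts of the 2 pretreatments rest on unlike sets of genes.

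**Figure D2:**
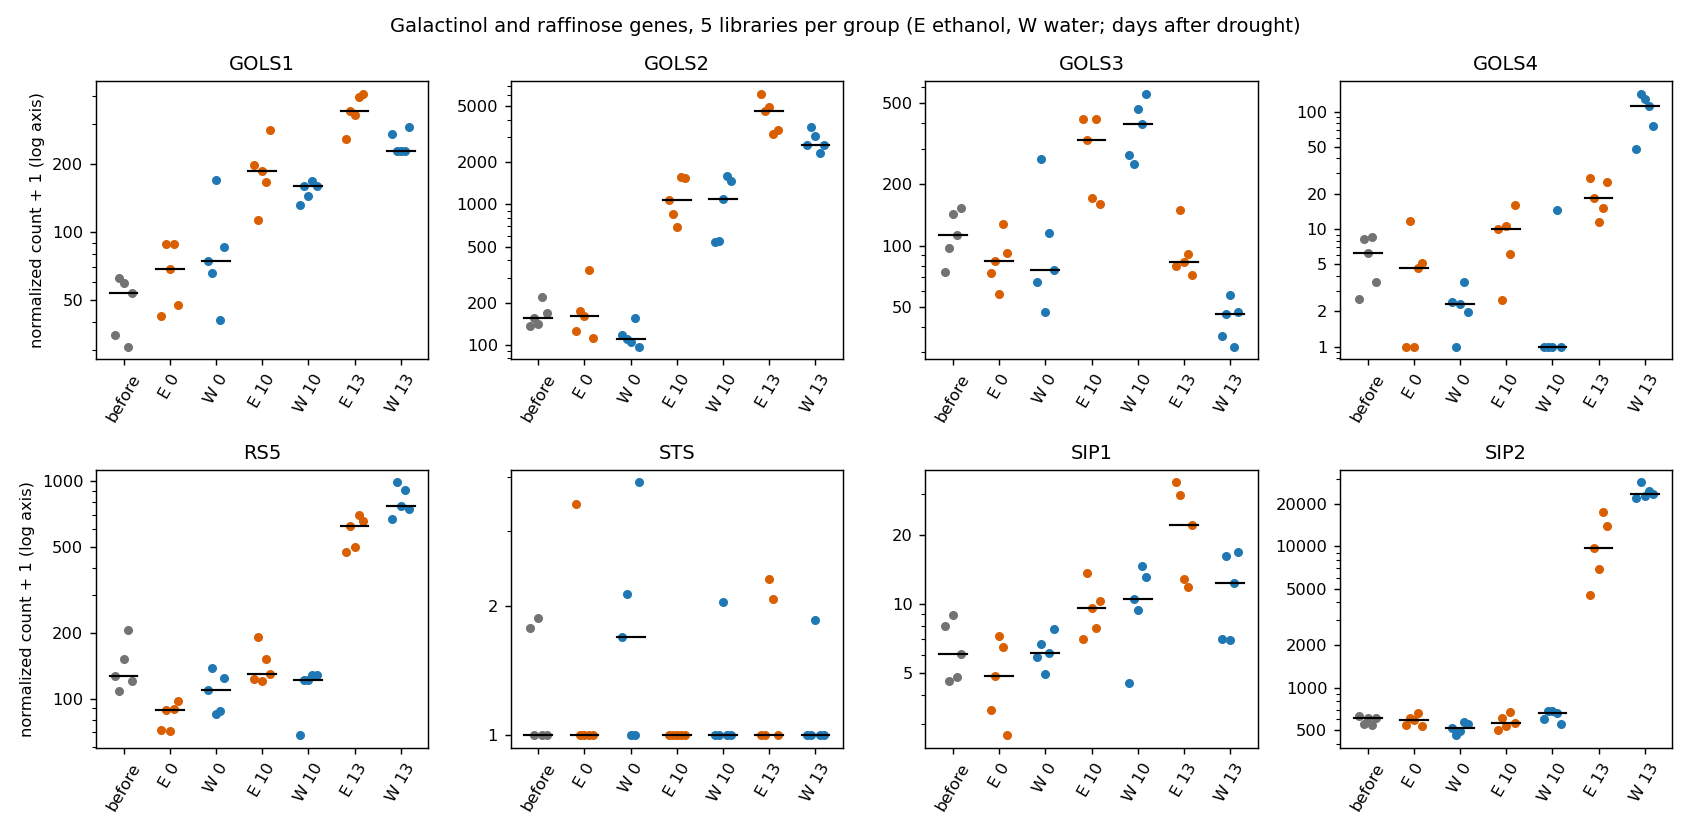
Normalized count plus 1 on a log axis for each of the 8 genes, with 1 point per library and a bar at the median of 5 libraries, before the pretreatments and in ethanol- (E) and water-treated (W) plants at 0, 10 and 13 DAD. At 13 DAD, SIP2 lies between 4520 and 17362 in ethanol-treated plants and between 21760 and 28218 in water-treated plants, and GOLS3 is highest at 10 DAD in both.

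GOLS2, a galactinol synthase gene known to respond to drought, was the most abundant of the 4 galactinol synthase genes in the droughted shoots. In ethanol-treated plants its level was 111 to 338 normalized counts at 0 DAD, 685 to 1575 at 10 DAD and 3176 to 6142 at 13 DAD. In water-treated plants it was 96.2 to 154 at 0 DAD, 536 to 1601 at 10 DAD and 2328 to 3563 at 13 DAD. No library of a later time overlapped with an earlier one in either pretreatment. The log2 fold change at 13 against 0 DAD was 4.72 in ethanol-treated plants (SE 0.333, adjusted p = 7.22e-08 by edgeR) and 4.64 in water-treated plants (SE 0.148, adjusted p = 8.36e-17 by edgeR), and the ratios of the mean levels were 24.7 in ethanol-treated and 24.6 in water-treated plants. Ranked by mean level among all genes, GOLS2 stood at place 5028 in ethanol-treated plants at 0 DAD and 160 at 13 DAD, and at places 7116 and 319 in water-treated plants. The early step was 2.72 (SE 0.382) and 3.22 (SE 0.368) on the log2 scale in ethanol- and water-treated plants, and the late step 1.97 (SE 0.250) in ethanol-treated and 1.39 (SE 0.316) in water-treated plants.

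GOLS1, which is known to be induced by heat and drought, rose less. It measured 41.8 to 88.1 normalized counts at 0 DAD, 113 to 282 at 10 DAD and 258 to 409 at 13 DAD in ethanol-treated plants. The corresponding levels were 39.8 to 170 at 0 DAD, 131 to 167 at 10 DAD and 227 to 291 at 13 DAD in water-treated plants. One water-treated library at 0 DAD (replicate 3, 170 normalized counts) lay above all 5 libraries of its group at 10 DAD. The log2 fold change at 13 against 0 DAD was 2.47 (SE 0.216, adjusted p = 5.04e-08 by edgeR) in ethanol-treated plants and 1.54 (SE 0.304, adjusted p = 5.94e-04 by edgeR) in water-treated plants. At 10 against 0 DAD it was 1.54 (SE 0.259) in ethanol-treated plants, which passed, and 0.84 (SE 0.301, adjusted p = 0.0383 by edgeR) in water-treated plants, which fell short of the fold threshold and passed it at 1.25 without that replicate 3. The difference of these 2 changes between 0 and 10 DAD was not tested. Between 10 and 13 DAD the change was 0.90 in ethanol-treated and 0.67 in water-treated plants, both under the fold threshold, and it passed at 1.06 in ethanol-treated plants without their replicate 5 at 10 DAD.

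GOLS3, known as the galactinol synthase gene that responds to cold through the DREB1 (CBF) factors, followed another course. Its level in ethanol-treated plants was 56.9 to 127 normalized counts at 0 DAD, 160 to 420 at 10 DAD and 70.8 to 148 at 13 DAD. Water-treated plants had 46.2 to 267 at 0 DAD, 251 to 557 at 10 DAD and 31.0 to 56.2 at 13 DAD. It was highest at 10 DAD in both pretreatments, and at 13 DAD no library reached the lowest one of 10 DAD. The early rise was 1.86 (SE 0.349) in ethanol-treated plants, against 1.81 (SE 0.502) in water-treated plants on the log2 scale. The late change was -1.69 (SE 0.309, adjusted p = 5.25e-04 by edgeR) in ethanol-treated plants and -3.22 (SE 0.232, adjusted p = 4.57e-10 by edgeR) in water-treated plants. Against 0 DAD, GOLS3 at 13 DAD was at 0.19 (SE 0.237, adjusted p = 0.491 by edgeR) in ethanol-treated plants and had fallen in water-treated plants (-1.39, SE 0.485, adjusted p = 0.0235 by edgeR). The fall in water-treated plants rested on replicate 2 of the water-treated plants at 0 DAD (267 normalized counts), without which the value was -0.77.

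GOLS4, a further galactinol synthase gene, had very few counts until late drought. Over the 5 libraries of a group its raw counts summed to 21 in ethanol-treated and 8 in water-treated plants at 0 DAD, and to 40 in ethanol-treated and 13 in water-treated plants at 10 DAD, where all 13 came from replicate 4. At 13 DAD the sums were 108 in ethanol-treated plants, against 452 in water-treated plants. The water-treated libraries at 13 DAD all lay above every library of the other groups. Corrected for library scale, the summed counts at 13 DAD were 5.19 times those at 0 DAD in ethanol-treated plants (95% interval 3.23 to 8.72) and 88.0 times in water-treated plants (44.3 to 205), where the exact intervals cover counting error only. The fitted log2 changes at 13 against 0 DAD were 2.34 (SE 0.679, adjusted p = 0.00618 by edgeR) in ethanol-treated plants and 6.32 (SE 0.448, adjusted p = 6.02e-11 by edgeR) in water-treated plants. Between 10 and 13 DAD they were 1.28 (SE 0.490) in ethanol-treated plants, or 0.99 without replicate 2 at 10 DAD, and 4.91 (SE 0.737) in water-treated plants. The value in water-treated plants ranged from 4.56 to 9.41 with 1 library left out, so its size is uncertain.

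RS5, the raffinose synthase gene that accounts for raffinose in stressed leaves, passed both thresholds in the late step alone. Its level in ethanol-treated plants was 70.2 to 96.1 normalized counts at 0 DAD, 120 to 191 at 10 DAD and 470 to 696 at 13 DAD. Water-treated plants showed 83.8 to 138 at 0 DAD, 66.8 to 128 at 10 DAD and 670 to 986 at 13 DAD. In ethanol-treated plants all libraries at 10 DAD were above those at 0 DAD, whereas in water-treated plants these times overlapped. The change at 10 against 0 DAD was 0.81 (SE 0.163, adjusted p = 3.24e-04 by edgeR) in ethanol-treated plants, under the fold threshold, and 0.10 (SE 0.189, adjusted p = 0.713 by edgeR) in water-treated plants. Whether this early step differed between the pretreatments was not tested. The late step was 2.05 (SE 0.164) in ethanol-treated plants, against 2.80 (SE 0.167) in water-treated plants, and the change at 13 against 0 DAD was 2.90 (SE 0.156) in ethanol-treated and 2.92 (SE 0.149) in water-treated plants on the log2 scale. STS, known from work on seeds for raffinose and stachyose synthesis, had 0 to 3 raw counts in every library and was tested in no comparison. It was listed at 0 in all 5 ethanol-treated libraries at 10 DAD, which allows up to 3 counts over them by counting error alone.

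SIP2, whose product is known as an alkaline alpha-galactosidase that hydrolyses raffinose, changed most in absolute level. Its normalized counts were 533 to 655 at 0 DAD and 501 to 674 at 10 DAD in ethanol-treated plants, and 459 to 572 at 0 DAD and 549 to 684 at 10 DAD in water-treated plants. At 13 DAD it averaged 10488 ± 5197 in ethanol-treated plants, against 24132 ± 2506 in water-treated plants (SD, n = 5 each). Every library at 13 DAD stood far above every library of the earlier times. From edgeR, the change at 13 against 10 DAD was 4.20 (SE 0.335, adjusted p = 3.86e-07 by edgeR) in ethanol-treated plants and 5.20 (SE 0.142, adjusted p = 9.34e-17 by edgeR) in water-treated plants. At 13 DAD, SIP2 took 0.183% of all counts in ethanol-treated plants, at place 47 among all genes, and 0.337% in water-treated plants, at place 25. SIP1, a member of the same family whose activity is less established, remained low, with 1.67 to 32.8 normalized counts over all 35 libraries. In ethanol-treated plants it rose by 13 DAD (2.52 against 0 DAD, SE 0.494, adjusted p = 2.86e-04 by edgeR), and in water-treated plants it had too few counts for a test along the series.

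**Figure D3:**
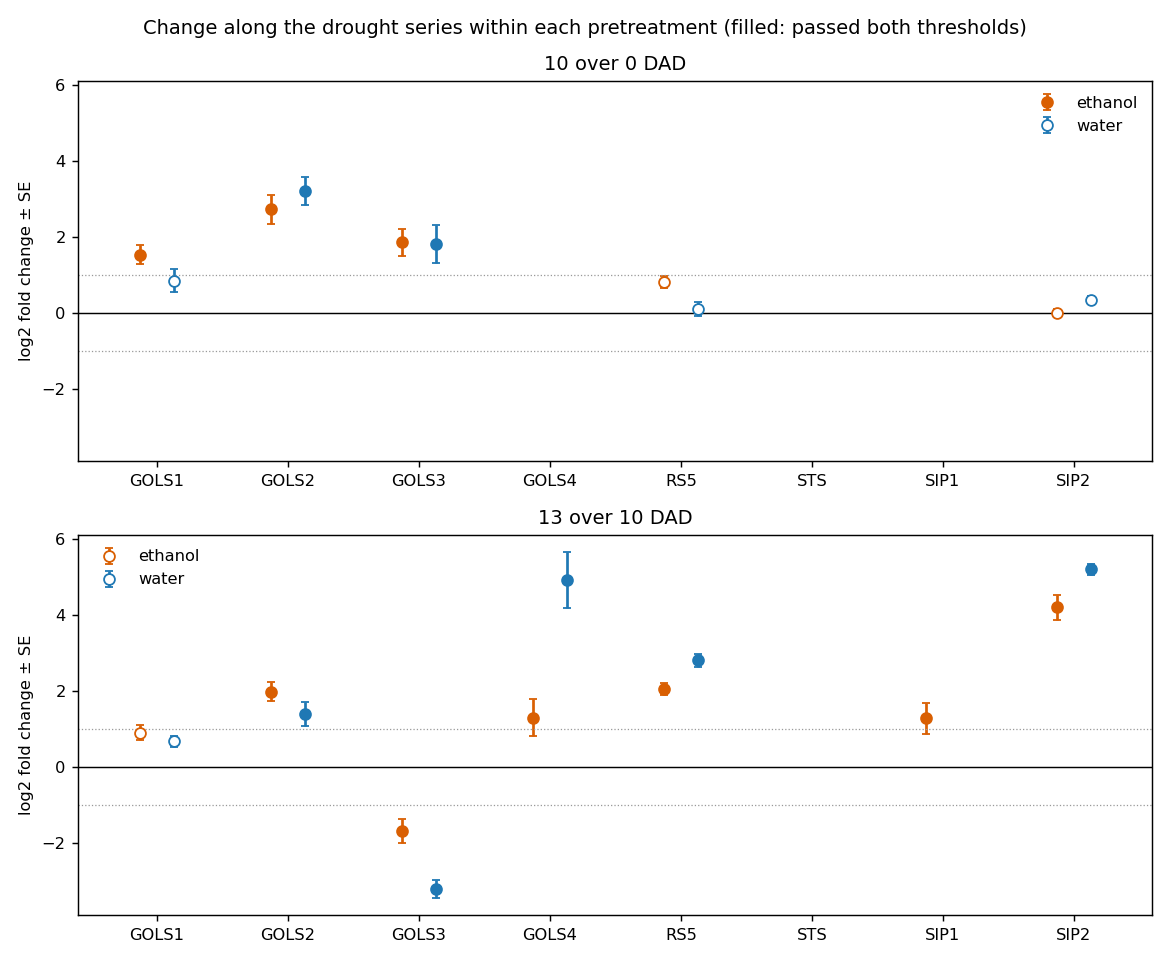
Log2 fold change (± SE, edgeR) of each tested gene at 10 against 0 DAD (upper) and at 13 against 10 DAD (lower) in ethanol- and water-treated plants, with 5 libraries a group, filled symbols for genes past both thresholds and dotted lines at the fold threshold. GOLS2 and GOLS3 changed in the early step, and RS5 and SIP2 passed only in the late one, by 2.05 and 4.20 in ethanol-treated plants and by 2.80 and 5.20 in water-treated plants.

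Ethanol- and water-treated plants differed in 4 of the 7 tested members at 13 DAD. GOLS3 and SIP1 were higher and GOLS4 and SIP2 lower in ethanol-treated plants, against 13.6% of all genes tested that differed in either direction (8.79% higher and 4.78% lower). SIP1 passed the expression filter through the ethanol-treated libraries, with 9 to 49 raw counts, against 5 to 15 in water-treated ones. It could therefore hardly be called lower, and its direction carries little weight in this count. GOLS1, GOLS2 and RS5 reached the false discovery rate but not the fold threshold. The groups did not overlap for GOLS3, GOLS4 and SIP2, which is 3 of 7 members, against 22.7% of all genes tested.

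SIP2 had 4520, 9771, 6883, 17362 and 13904 normalized counts in replicates 1 to 5 of the ethanol-treated plants at 13 DAD. The water-treated plants had 21760, 28218, 22745, 24609 and 23326. All ethanol-treated libraries lay below all water-treated ones, and they were more spread, with replicates 1 and 3 lowest. This gave a log2 fold change of -1.15 (SE 0.293, adjusted p = 0.0102 by edgeR). Without replicate 1 of the ethanol-treated plants it was -0.96 and missed the fold threshold, as it did with scaling by library size only (-0.90, where the median of all genes was 0.30).

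GOLS4 had 26.1, 17.6, 10.5, 14.0 and 24.2 normalized counts in ethanol-treated plants at 13 DAD. In water-treated plants these were 46.9, 142, 129, 111 and 74.6. The highest ethanol-treated library was below the lowest water-treated one, and the means stood at 18.5 ± 6.63 in ethanol-treated and 101 ± 39.1 in water-treated plants (SD, n = 5 each). Its log2 fold change of -2.32 (SE 0.321, adjusted p = 6.96e-05 by edgeR) was the largest of the 7 members in size.

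GOLS3 was present at 78.4, 148, 82.7, 89.7 and 70.8 normalized counts in ethanol-treated plants at 13 DAD. Water-treated plants had 34.9, 45.5, 56.2, 31.0 and 46.3. The groups did not overlap, and replicate 2 of the ethanol-treated plants lay apart from the other 4. For GOLS3 the log2 fold change was 1.15 (SE 0.241, adjusted p = 0.00181 by edgeR), and 0.94 without that replicate, which is under the fold threshold.

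SIP1 had 32.8, 28.7, 11.8, 10.8 and 21.0 normalized counts in ethanol-treated plants and 6.02, 15.2, 5.96, 11.3 and 15.8 in water-treated plants at 13 DAD. The groups overlapped, and only 3 ethanol-treated libraries were above every water-treated one. The log2 fold change of 1.04 (SE 0.435, adjusted p = 0.0784 by edgeR) was just past the threshold. It was lost in 6 of the 10 fits that left out 1 library (replicates 1, 2 and 5 of the ethanol-treated and 1, 3 and 4 of the water-treated plants; 0.79 to 1.21 over all 10), with the replicate number as a block (0.97, adjusted p = 0.12 by edgeR) and among genes with at least 1 count (1.02, adjusted p = 0.112 by edgeR).

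GOLS2 measured 6142, 4645, 4977, 3176 and 3369 normalized counts in ethanol-treated plants at 13 DAD, against 2637, 3563, 3085, 2328 and 2651 in water-treated plants. Replicates 4 and 5 of the ethanol-treated plants fell among the water-treated libraries and the other 3 above them. The log2 fold change was 0.70 (SE 0.178, adjusted p = 0.00671 by edgeR), under the fold threshold. GOLS1 had 258, 342, 330, 397 and 409 in ethanol-treated plants and 272, 229, 227, 228 and 291 in water-treated plants, with 4 of the 5 ethanol-treated libraries above all water-treated ones (0.53, SE 0.141, adjusted p = 0.00918 by edgeR). RS5 had 470, 618, 495, 696 and 654 in ethanol-treated plants and 670, 986, 764, 906 and 744 in water-treated plants, and these groups overlapped by 1 library on each side (-0.42, SE 0.134, adjusted p = 0.0245 by edgeR). Under other processing RS5 ranged from -0.44 to -0.16 (adjusted p = 0.0174 to 0.326 by edgeR or DESeq2). It thus did not reach the false discovery rate under every alternative. GOLS2 ranged from 0.67 to 0.98 and GOLS1 from 0.50 to 0.78, under the fold threshold throughout.

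At 10 DAD, 0 of the 5 tested members differed between ethanol- and water-treated plants, and 11 of all 16171 genes tested did (0.068%). The log2 fold changes ranged between -0.37 (SE 0.350) for GOLS3 and 0.35 (SE 0.186) for RS5, with adjusted p of at least 0.606 by edgeR. Of the 5, 0 had an unadjusted p under 0.05, and DESeq2 called 0. At 0 DAD, directly after the pretreatment, 0 of 5 members differed, against 0.0986% of all genes. An unadjusted p under 0.05 was reached by 1 of them (RS5), and DESeq2 called 0. Here GOLS2 had the largest value (0.62, SE 0.300, adjusted p = 0.506 by edgeR), with levels of 124, 172, 158, 338 and 111 normalized counts in ethanol-treated plants and 117, 110, 103, 154 and 96.2 in water-treated plants. These groups overlapped, and 338 was far from the other 4. GOLS4 and SIP1 were not tested at these times.

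**Figure D4:**
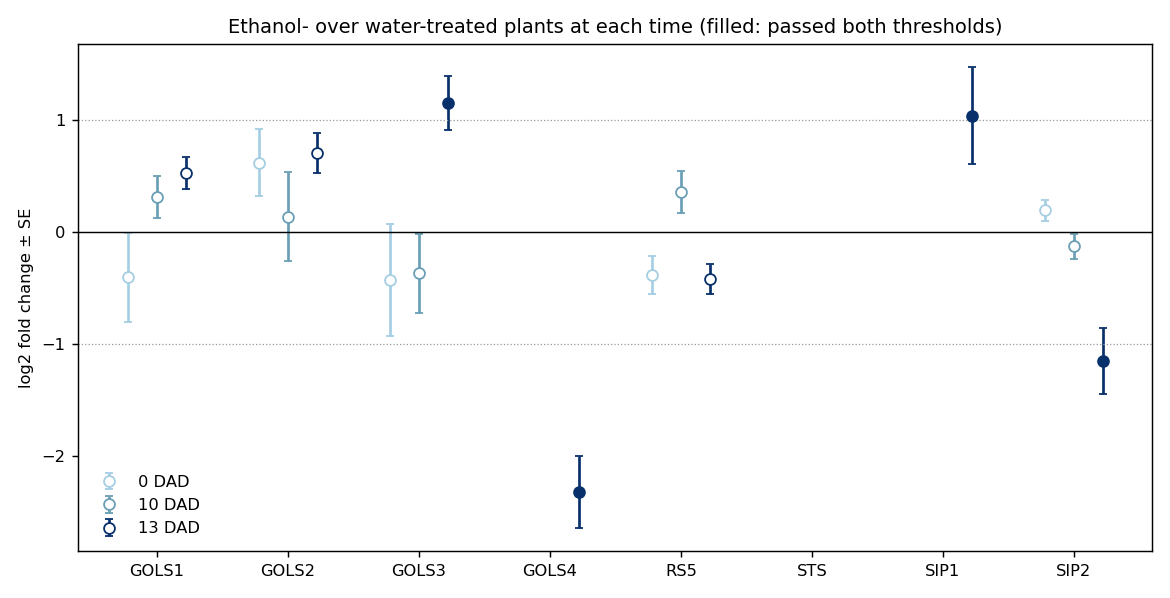
Log2 fold change (± SE, edgeR) of ethanol- over water-treated plants at 0, 10 and 13 DAD for each gene tested, with 5 libraries a group, filled symbols for genes past both thresholds and dotted lines at the fold threshold. At 13 DAD, GOLS3 (1.15) and SIP1 (1.04) stand above and GOLS4 (-2.32) and SIP2 (-1.15) below 0, and no gene passed at 0 or 10 DAD.

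The difference between pretreatments in the drought response itself was tested as an interaction, the change in ethanol-treated plants minus that in water-treated plants. It uses libraries that the comparisons above also use. For 13 against 0 DAD, 1 of 7 tested members had a higher and 2 a lower change in ethanol-treated plants, against 13.3% of all genes (8.55% higher and 4.74% lower). SIP2 had an interaction of -1.36 (SE 0.316, adjusted p = 0.00383 by edgeR), GOLS4 of -4.00 (SE 0.933, adjusted p = 0.00373 by edgeR) and GOLS3 of 1.56 (SE 0.537, adjusted p = 0.0469 by edgeR). For GOLS3 it was 0.94 without replicate 2 of the water-treated plants at 0 DAD. The same 3 genes passed for 13 against 10 DAD (12.7% of all genes, 8.61% higher and 4.06% lower), with -1.04 for SIP2 (SE 0.322, adjusted p = 0.026 by edgeR), -3.66 for GOLS4 (SE 0.960, adjusted p = 0.0109 by edgeR) and 1.49 for GOLS3 (SE 0.425, adjusted p = 0.0189 by edgeR). For 13 against 10 DAD, the GOLS4 value ranged from -8.29 to -3.31 with 1 library left out. SIP2 missed the fold threshold there without replicate 4 of the ethanol-treated plants at 10 DAD (-0.99), without replicate 1 (-0.86) or 3 (-0.93) of those at 13 DAD, and with library size only (-0.88). RS5 had -0.79 (SE 0.235, adjusted p = 0.02 by edgeR), under the fold threshold. GOLS1 (0.91, SE 0.384, adjusted p = 0.103 by edgeR) and SIP1 (1.45, SE 0.674, adjusted p = 0.134 by edgeR) did not pass for 13 against 0 DAD. GOLS1 passed without replicate 2 (1.01) or 4 (1.10) of the water-treated or replicate 2 (1.07) or 4 (1.01) of the ethanol-treated plants at 0 DAD, and SIP1 without replicate 3 of the ethanol-treated plants at 0 DAD (1.74) or their replicate 4 at 13 DAD (1.61). GOLS2 had 0.06 (SE 0.338, adjusted p = 0.924 by edgeR) for 13 against 0 DAD.

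Against the plants sampled before the pretreatments, 0 of 5 members differed at 0 DAD in ethanol-treated plants (3.92% of all genes) and 0 of 5 in water-treated plants (2.36% of all genes). Both comparisons share the group sampled before. An unadjusted p under 0.05 in edgeR was reached by 1 member in ethanol-treated plants, against 3 in water-treated plants, and DESeq2 called 0 in both. RS5 had the smallest adjusted p, at 70.5, 87.4, 70.2, 88.1 and 96.1 normalized counts in ethanol-treated plants at 0 DAD, against 126, 108, 150, 206 and 119 before. These groups did not overlap, which was so for 15.3% of all genes tested. The log2 fold change of RS5 was -0.75 (SE 0.171, adjusted p = 0.00219 by edgeR), under the fold threshold. In water-treated plants it was -0.36 (SE 0.174, adjusted p = 0.189 by edgeR). GOLS1 in water-treated plants had 0.84 (SE 0.373, adjusted p = 0.177 by edgeR), which passed at 1.04 without their replicate 4.

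Per kb of annotated mRNA, the 4 galactinol synthase genes can be set beside each other. GOLS2 took 52.4% ± 6.46 of their summed level in ethanol-treated plants at 0 DAD, 69.0% ± 5.78 at 10 DAD and 89.9% ± 3.47 at 13 DAD (SD, n = 5 each). In water-treated plants its share was 37.9% ± 10.0 at 0 DAD, 64.0% ± 7.04 at 10 DAD and 87.4% ± 1.38 at 13 DAD. The sum grew along with the share of GOLS2, and at 13 DAD it was 3435 ± 811 normalized counts per kb in ethanol-treated plants, against 2271 ± 349 in water-treated plants. GOLS4 contributed 0.413% ± 0.164 in ethanol-treated plants, against 3.25% ± 1.11 in water-treated plants at 13 DAD, and GOLS3 1.91% ± 0.656 in ethanol-treated and 1.27% ± 0.217 in water-treated plants. Among the 4, the differences at 13 DAD that passed both thresholds (GOLS3 and GOLS4) were thus in the 2 genes of lowest level. These shares are a description without a test, and where the reads fell along each transcript was not examined.

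**Figure D5:**
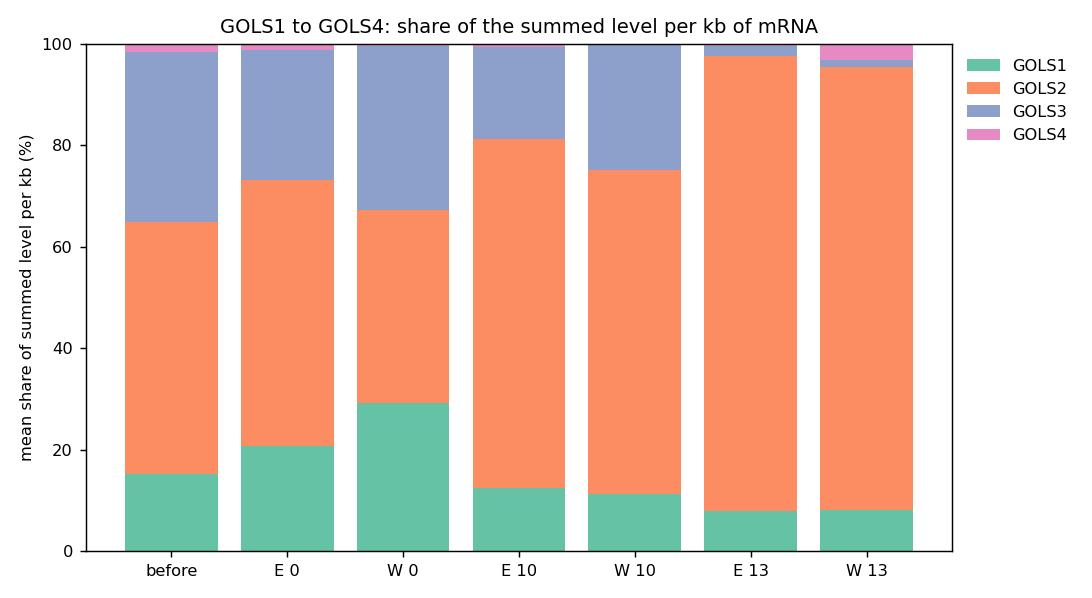
Mean share (%) of GOLS1, GOLS2, GOLS3 and GOLS4 in their summed level per kb of mRNA, over 5 libraries per group, before the pretreatments and in ethanol- (E) and water-treated (W) plants at 0, 10 and 13 DAD. The GOLS2 share reached 89.9% in ethanol-treated and 87.4% in water-treated plants at 13 DAD.

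The genes that supply the substrates of galactinol synthase moved in both directions. Of 6 genes of myo-inositol supply, 2 were higher and 0 lower in ethanol-treated plants at 13 DAD (8.79% and 4.78% of all genes tested). The median was 0.74 over the list and 0.04 over all genes tested. MIPS3, which encodes a myo-inositol phosphate synthase, had 30.8 to 94.2 normalized counts in ethanol-treated plants, against 11.9 to 24.2 in water-treated plants (1.89, SE 0.339, adjusted p = 5.64e-04 by edgeR). The other was IMPL2 (1.79, SE 0.473, adjusted p = 0.00824 by edgeR), whose product is known for histidine synthesis. MIPS1 and MIPS2, the more abundant synthase genes, had 0.69 (SE 0.163) and 0.80 (SE 0.185), under the fold threshold. Of the same 6 genes, 2 rose (MIPS1 and MIPS2) and 2 fell (VTC4 and IMPL2) at 13 against 0 DAD in ethanol-treated plants, and 2 rose (MIPS1 and MIPS2) and 3 fell (VTC4, IMPL2 and MIPS3) in water-treated plants. Among all genes tested, 19.5% rose and 24.8% fell in ethanol-treated plants, and 22.6% rose and 30.0% fell in water-treated plants. The list was not tested against these shares.

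At 13 DAD, 8.79% of all genes tested were higher and 4.78% lower in ethanol-treated plants. Of 5 UDP-glucose 4-epimerase genes, which supply UDP-galactose, 0 were higher and 1 lower in ethanol-treated plants at 13 DAD (list median -0.39). This was UGE3, at 14.0 to 40.7 normalized counts in ethanol-treated plants, against 39.7 to 88.5 in water-treated plants (-1.41, SE 0.332, adjusted p = 0.0041 by edgeR). Under drought, UGE5 changed most of the 5, by 3.15 (SE 0.196) in ethanol-treated plants, against 3.91 (SE 0.143) in water-treated plants at 13 against 0 DAD. UGE2 rose in both pretreatments too, by 1.94 in ethanol-treated and 2.18 in water-treated plants. UGE3 fell in ethanol-treated plants (-1.90, SE 0.282), against -0.18 (SE 0.228, not past the thresholds) in water-treated plants. UGE4 had 0.63 (SE 0.180, under the fold threshold) in ethanol-treated plants and rose by 1.01 (SE 0.147) in water-treated plants. Thus 2 of the 5 rose and 1 fell in ethanol-treated plants (19.5% and 24.8% of all genes tested). In water-treated plants 3 rose and 0 fell (22.6% and 30.0% of all genes tested). Among 3 acidic alpha-galactosidase genes and the galactokinase gene GALK, 0 were higher and 1 lower in ethanol-treated plants at 13 DAD (list median -0.23). The shares of all genes in this comparison were again 8.79% higher and 4.78% lower. AGAL1 had 27.1 to 61.7 normalized counts in ethanol-treated plants, against 82.1 to 146 in water-treated plants there, without overlap (-1.30, SE 0.220, adjusted p = 3.73e-04 by edgeR). At 13 against 0 DAD, 1 of these 4 genes rose and 2 fell in ethanol-treated plants (list median -0.43), and 1 rose and 1 fell in water-treated plants (list median -0.03). The shares of all genes given for the epimerase list apply here too, and neither list was tested against them. AGAL3 rose by 1.46 (SE 0.126) in ethanol-treated and 2.04 (SE 0.103) in water-treated plants. AGAL2 fell in both, with -1.06 (SE 0.230) in ethanol-treated and -1.66 (SE 0.175) in water-treated plants. AGAL1 fell in ethanol-treated plants (-1.75, SE 0.188), against -0.25 (SE 0.167, not past the thresholds) in water-treated plants.

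DIN10, the other gene of the raffinose synthase and seed imbibition family and one known to respond to darkness and sugar, went opposite to SIP2 along the drought. It had 582 to 854 normalized counts at 0 DAD, 84.6 to 222 at 10 DAD and 19.4 to 99.8 at 13 DAD in ethanol-treated plants. Water-treated plants had 395 to 612, 88.9 to 217 and 55.4 to 119 at these times. Its fall at 13 against 0 DAD was -3.82 (SE 0.339) in ethanol-treated plants, against -2.68 (SE 0.175) in water-treated plants, with an interaction of -1.18 (SE 0.394, adjusted p = 0.0408 by edgeR). DIN10 had risen during the pretreatments, by 2.07 in ethanol-treated and 1.60 in water-treated plants against the plants sampled before. Of 6 further genes listed as galactinol synthases, GOLS8 alone was tested at 13 DAD, and it was lower in ethanol-treated plants (-1.16, SE 0.459, adjusted p = 0.0629 by edgeR), with 4.69 to 11.9 normalized counts there, against 11.4 to 35.8 in water-treated plants. It had also fallen at 13 against 0 DAD in ethanol-treated plants (-1.61, SE 0.388). RefSeq names this locus GATL10.

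Transcription factors known to act on galactinol synthase genes were counted as a list of 7, of which 5 were tested at 13 DAD. Of these 5, 1 was higher and 1 lower in ethanol-treated plants (8.79% and 4.78% of all genes tested, list median -0.23). DREB1A, a factor known to induce GOLS3 in the cold, had 271, 260, 231, 160 and 164 normalized counts in ethanol-treated plants, against 97.5, 50.5, 101, 83.1 and 110 in water-treated plants (1.34, SE 0.217, adjusted p = 2.71e-04 by edgeR). The groups did not overlap. DREB2A, a factor of drought and heat responses, had 119, 329, 202, 400 and 430 in ethanol-treated plants, against 607, 1537, 848, 1144 and 842 in water-treated plants (-1.69, SE 0.362, adjusted p = 0.00579 by edgeR). At 10 against 0 DAD, 2 of 6 tested factors rose and 0 fell in ethanol-treated plants (5.74% and 11.8% of all genes tested). Water-treated plants had 3 of 6 higher and 0 lower in this step (6.26% and 10.6% of all genes tested). Along the drought (13 against 0 DAD), 3 of 7 tested factors rose and 1 fell in ethanol-treated plants (19.5% and 24.8% of all genes tested). In water-treated plants 2 of 6 rose and 1 fell (22.6% and 30.0% of all genes tested). DREB2A rose in both, by 3.24 in ethanol-treated and 4.90 in water-treated plants, and DREB1A rose in ethanol-treated plants (1.34). DREB1B fell in ethanol-treated plants (-1.02), from a mean of 13.2 to 5.59 normalized counts. Its mean went from 11.5 to 2.26 in water-treated plants, where it had too few counts for a test. DREB1C fell in water-treated plants (-2.87). HSFA2, a heat shock factor known to act on GOLS1, rose in both and ranged over 0.82 to 3.56 (0 DAD) and 8.04 to 45.2 (13 DAD) normalized counts in ethanol-treated plants. Water-treated plants had 0 to 0.696 and 12.0 to 70.8 at these times, and ethanol- over water-treated plants gave -0.23 at 13 DAD (SE 0.482, adjusted p = 0.751 by edgeR).

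Likeness in course was measured for the 5 members with a mean of at least 20 raw counts, as the root mean square difference in centred log2 levels (pseudocount 1) over the 35 libraries, among 15462 genes. SIP2 was closest to AT4G33150 (0.28), SWEET4 (0.28) and AT3G15760 (0.28), against an SD of its own log2 level of 2.17. RS5 was closest to AT5G09620 (0.31), HVA22D (0.33) and TXR1 (0.33). For GOLS2 the nearest genes were AT4G33040 (0.42), NAP (0.49) and AT3G14280 (0.52), and for GOLS1 they were APS4 (0.41), AT1G03290 (0.43) and RSH2 (0.43). The nearest to GOLS3, with an SD of its own of 1.12, stood at 0.62 (AT2G39710), 0.62 (AT2G29320) and 0.64 (MIR162a). Among the members themselves, the smallest difference was between GOLS1 and RS5 (0.94), and SIP2 and GOLS3 were farthest apart (2.94). The 0.94 was near the SD of GOLS1 (1.07) and of RS5 (1.23), so these 2 were not close in course. RS5 stood at place 3930 among the genes nearest to GOLS1, and GOLS1 at place 2705 among those nearest to RS5. This is a description over libraries that share groups.

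Within the ethanol-treated plants at 13 DAD, the libraries were not alike. Replicates 1 and 3, the lowest in SIP2 (4520 and 6883), were also the lowest in RS5 (470 and 495), whereas they were the highest in GOLS2 (6142 and 4977). They were the lowest in DREB2A (119 and 202) and the highest in the leaf marker RCA (12185 and 11347, against 3615 to 6469 in the other 3 and 2171 to 3393 in water-treated plants). The leaf marker CAB1 did not set both apart. It had 6175 to 14437 normalized counts in these ethanol-treated libraries, with replicate 1 at the median of 7251. The 3 leaf markers summed to 15777 to 44399 normalized counts in ethanol-treated plants, against 12511 to 17912 in water-treated plants at 13 DAD. At 0 DAD the sums were 310764 to 437255 in ethanol-treated plants, against 352789 to 449928 in water-treated plants. All 3 leaf markers fell at 13 against 0 DAD in both pretreatments (list median -4.12 in ethanol-treated and -4.55 in water-treated plants). Of all genes tested, 24.8% fell in ethanol-treated and 30.0% in water-treated plants. Between ethanol- and water-treated plants at 13 DAD, 1 of the 3 leaf markers (RCA) was differentially expressed, against 13.6% of all genes tested. Of 4 seed markers, EM6 made up nearly all of the sum at 13 DAD (90.4 to 221 in ethanol-treated and 141 to 269 in water-treated plants), and the other 3 had few or no counts (OLEO1 and SESA1 at 0 in ethanol-treated plants, CRA1 and SESA1 at 0 in water-treated plants). The 5 flower markers summed to 11.8 to 43.1 in ethanol-treated plants, against 9.46 to 64.8 in water-treated plants at 13 DAD, and the only one tested there, SEP3, was higher in ethanol-treated plants (1.57, SE 0.540, adjusted p = 0.0348 by edgeR). The part of these differences between libraries in the values of the members was not tested.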

How the data were processed

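Shoot RNA of 35 libraries was made into Lasy-Seq libraries. According to the study's methods and the submitters' processing notes, the authors trimmed reads with Trimmomatic, aligned them to TAIR10 with HISAT2 and counted them per gene on the sense strand with featureCounts. The deposited raw counts are whole numbers per gene, and they were used for every test. The deposited normalized counts (a signal) are the authors' raw counts divided by 1 factor per library, with DESeq2 named in the notes, and they are printed as levels. All 27417 genes were read and every column was matched to a sample.

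Each comparison was fitted on its own 10 libraries (20 for an interaction) with edgeR 4.0.16 in R 4.3.3, with TMM scaling, the default expression filter, the robust quasi-likelihood test and Benjamini-Hochberg adjustment over all genes tested. The thresholds were a false discovery rate of 0.1 and a log2 fold change of 1. Each SE was obtained from the fold change and the F statistic, as the size of the change over the root of F. The rule for named genes was all 8 members in every comparison, list genes past both thresholds in a comparison described for that list, and the 3 genes nearest in course to each member. The members and lists were chosen with earlier results of these data known. Sequence identity used BLAST 2.17.0. On simulated counts for the comparison at 13 DAD (15114 genes), edgeR recovered 98 of 100 genes changed by 2 and 99 of 100 changed by 3 on the log2 scale, with 6 others called. Changes near 1, as most differences of the members at 13 DAD are, were not simulated.

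Alternatives were DESeq2 1.42.0, other scaling, no expression filter, all groups in 1 fit, a replicate block, non-robust dispersion, a stricter false discovery rate and the removal of single libraries. Same-numbered libraries did not pair (r of their deviations -0.336 to 0.185 over 115 pairs). Precision is limited by 5 libraries a group and by total counts of 3589540 to 13440389. Intervals and limits from counts cover counting error only.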

Additional observations from a re-analysis of the deposited data

Results flagged for a closer look

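In 7 of the 56 groups of 5 libraries examined (8 genes in 7 groups), 1 library lay far from the other 4. For continuous values chance flags about 1 in 20 groups, but 4 of the 7 (GOLS4 once and STS in 3 groups) held 4 libraries at 0 and 1 above it, which meets the criterion by construction, so the 7 cannot be set against that rate. GOLS2 was highest in replicate 4 of the ethanol-treated plants at 0 DAD (338 normalized counts), and GOLS3 in replicate 2 of the ethanol-treated plants at 13 DAD (148). GOLS4 at 10 DAD in water-treated plants was read in replicate 4 alone (13.6), and RS5 was lowest in replicate 1 of the same group (66.8). The other 3 were libraries with 1 to 3 raw counts of STS, at 2.46 normalized counts in ethanol-treated plants at 0 DAD (replicate 1), 1.04 in water-treated plants at 10 DAD (replicate 3) and 0.852 in water-treated plants at 13 DAD (replicate 3).

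The change under drought differed between ethanol- and water-treated plants, by edgeR's interaction test, for the same 3 genes over both intervals. For 13 against 0 DAD the interactions were 1.56 for GOLS3, -4.00 for GOLS4 and -1.36 for SIP2 on the log2 scale. For 13 against 10 DAD they were 1.49 for GOLS3, -3.66 for GOLS4 (-8.29 to -3.31 with 1 library left out) and -1.04 for SIP2. No cause of these differences was tested.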

How the results depend on the processing

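Of 616 values of the 77 member results under alternatives other than leaving out a library, 602 kept their direction and side of the thresholds, and of 910 with 1 library left out, 855 did. At 13 DAD, 2 to 4 members differed between ethanol- and water-treated plants with 1 library left out, with 2 when replicate 1 or 2 of the ethanol-treated plants was absent. Leaving out 1 library gave 0 to 1 members for water-treated plants at 0 DAD against those sampled before. With the replicate number as a block, 3 members differed at 13 DAD, SIP1 being lost (0.97), and no other member call changed; the numbers do not pair the samples. SIP1 was also lost at a false discovery rate of 0.05.

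Scaling by library size only moved the median of all genes by -0.04 to 0.30, over 0.1 in 7 of 13 comparisons (0.26 for ethanol- over water-treated plants at 13 DAD). The interaction for 13 against 0 DAD then called 5 members, GOLS1 (1.18) and SIP1 (1.75) being added, RS5 at 10 against 0 DAD in ethanol-treated plants passed (1.04), and SIP2 missed the fold threshold at 13 DAD (-0.90).

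Signs turned only in values that were not called. For SIP2 at 10 against 0 DAD in ethanol-treated plants the value was 0.23 with library size only, 0.0233 among genes with at least 1 count and -0.0501 to 0.0589 with 1 library left out. GOLS3 in water-treated plants at 0 DAD against those sampled before gave 0.0115 with DESeq2's size factors, 0.0035 among genes with at least 1 count, 0.0097 with all 7 groups in 1 fit and -0.61 to 0.20 with 1 library left out. The RS5 interaction for 13 against 0 DAD was 0.21 with library size only and -0.16 to 0.0446 with 1 library left out. With 1 library left out, ethanol- over water-treated plants gave -0.0313 to 0.34 for GOLS2 at 10 DAD, -0.59 to 0.0042 for GOLS1 and -0.63 to 0.19 for GOLS3 at 0 DAD. Ethanol-treated plants at 0 DAD against those sampled before gave -0.17 to 0.28 for GOLS2 and -0.0338 to 0.0452 for SIP2, and the GOLS2 interaction for 13 against 0 DAD gave -0.0843 to 0.39. The causes were not tested. Depth limited STS, which was tested nowhere, and SIP1 and GOLS4 before 13 DAD.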
